A study of Homo sapiens with 2 samples.

Results

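Genes whose proteins fold, modify or admit secretory proteins in the endoplasmic reticulum (ER) were examined in a list of peaks from an RNA immunoprecipitation (RIP-seq) experiment. The genes were P4HB and PDIA3 (disulfide isomerases), DNAJC1 (a co-chaperone), SSR2 (part of the translocon-associated complex) and LRRC59 (an ER ribosome-binding protein). They were chosen by symbol, with their read counts and their place along the gene already known, so the values below are a description and carry no test. The 5 genes held 6 of the 236 distinct peaks in the list. The remaining 230 peaks served as the background.

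The cells were ARP1, an established human multiple myeloma line, with no treatment or genotype difference between the libraries. The IP library held RNA recovered with an antibody against SFRS8, a splicing regulator also named SFSWAP, and the input library held RNA taken without antibody; there was 1 library of each. The protocol in the labels also mentions an antibody against N6-methyladenosine, and whether it was used for these libraries is unclear. Which library a column belongs to is not written in the file. The plain count column was taken for the IP and the column marked CTL for the input, called control here, and the order of ratios would turn if this were wrong.

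Secretory and membrane proteins enter the ER while they are made. Ribosomes dock at the ER membrane, the nascent chain passes through the Sec61 channel with its associated subunits, and chaperones and disulfide isomerases of the lumen help it to fold. Plasma cells and myeloma cells, which secrete antibody, are known for an expanded ER. Of 10 plasma cell markers, 4 had a peak (MZB1, JCHAIN, XBP1 and ITGB7), and of 7 markers of other cells, none did. IRF4, PRDM1, SDC1, TNFRSF17, CD38 and SLAMF7 were the plasma cell markers without one. Of RefSeq protein-coding genes, 1.03% had a peak. The marker lists were chosen with earlier results of these data known, so nothing about cell identity is read from these counts. A gene without a peak has no level in such a list.

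The measure used is the ratio of IP reads to control reads within a peak. Total library depth is unknown, so a ratio under 1 is not depletion and a ratio is read only against other peaks. The 236 peaks held 12068 IP and 87259 control reads, with a median ratio of 0.190 (95% interval 0.142 to 0.228) and a middle range of 0.0732 to 0.554. Intervals of single ratios are exact Clopper-Pearson 95% intervals for counting error only, since PCR copies cannot be told from separate molecules. With 1 library per group the differences have no replicate check. Reads of a bulk lysate also cannot tell fewer cells with a transcript from less of it per cell.

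The member peaks covered a wide span of ratios. In 5 of the 6, control reads outnumbered IP reads and the interval lay wholly below 1, as it did for 76.3% of all peaks. The exception was LRRC59, and 11.4% of all peaks likewise had an interval wholly above 1. Against the median of all peaks, LRRC59, P4HB and the DNAJC1 peak nearer the 3′ end lay wholly above it by their intervals (3 of 6, against 36.4% of all peaks). PDIA3 and SSR2 lay wholly below it (2 of 6, against 40.3%), and the other DNAJC1 peak spanned it. These shares are counts over 6 peaks and set the group apart from the list in neither direction.

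**Figure D1:**
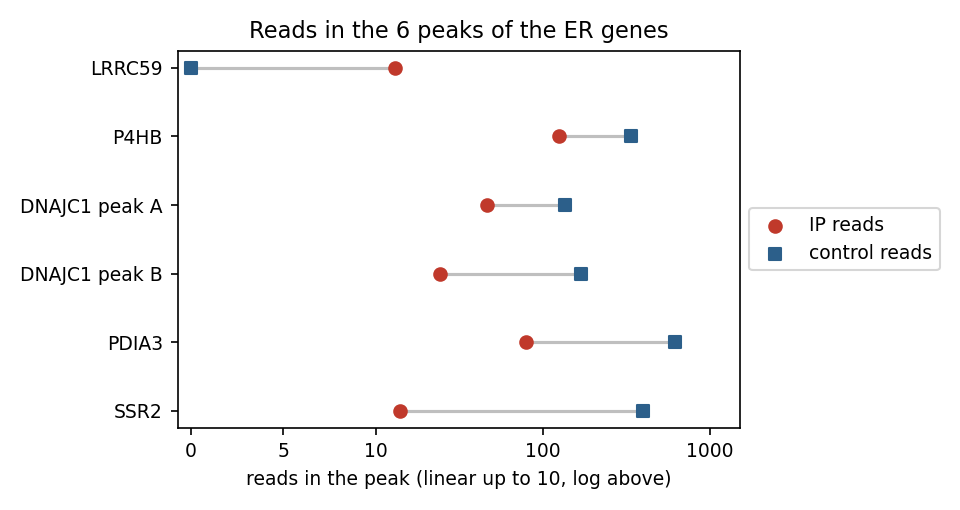
Reads in each of the 6 member peaks, with IP reads as red circles and control reads as blue squares, on an axis of reads that is linear up to 10 and logarithmic above. The control count exceeds the IP count in 5 peaks, and LRRC59 has 13 IP reads and 0 control reads.

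Among the disulfide isomerases, P4HB had the higher ratio. P4HB (ENSG00000185624) encodes protein disulfide isomerase, which forms and rearranges disulfide bonds and also serves as the beta subunit of prolyl 4-hydroxylase. Its peak lay on the minus strand of chromosome 17 from 81843191 to 81847490 (GRCh38) and held 124 IP reads and 337 control reads. The ratio of P4HB was 0.368 (0.297 to 0.453), 1.94 times the median of all peaks and rank 79 of 236.

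PDIA3 (ENSG00000167004), also named ERp57, acts on glycoproteins bound to calnexin and calreticulin and takes part in loading MHC class I molecules. On chromosome 15 its peak spanned 43765426 to 43773075, on the plus strand, with 79 IP reads and 617 control reads. The ratio of PDIA3 was 0.128 (0.100 to 0.162), 0.675 times the median and rank 140. The intervals of P4HB and PDIA3 did not overlap.

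These were the widest member peaks, at 4300 bases for P4HB and 7650 for PDIA3, against a median width of 2085 bases over the list. Per kilobase of peak, the control density of the pair was nearly equal, 78.4 reads for P4HB and 80.7 for PDIA3, whereas the IP density was 28.8 and 10.3 reads. These densities depend on the called widths, which cancel in the ratio: by raw reads PDIA3 had both fewer IP reads and more control reads than P4HB. The peak covered 24.5% of the P4HB span and 28.5% of the PDIA3 span. By RefSeq gene spans, 456 bases of the PDIA3 peak also lay in ELL3, a gene of the opposite strand. The strandedness of the counting is not given in the sources used here. Elsewhere in the list, the plus-strand NDUFB10 peak holds the whole minus-strand RPS2 peak. NDUFB10 had fewer reads, 15 IP and 43 control against 56 and 998, so in that pair reads were counted by strand.

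DNAJC1 was the only member with more than 1 peak. The gene (ENSG00000136770) encodes an ER membrane protein whose J domain faces the lumen and stimulates the chaperone BiP. Of the genes in the list, 20 of 238 had 2 or more peaks. Both DNAJC1 peaks lay on the minus strand of chromosome 10, and 46000 bases separated them in a gene of 247233 bases.

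The peak nearer the 3′ end, called peak A, ran from 21759001 to 21759800 with 46 IP and 136 control reads. Peak B, further upstream, ran from 21805801 to 21806200 with 24 IP and 169 control reads. The ratio was 0.338 (0.237 to 0.476) for peak A and 0.142 (0.0885 to 0.219) for peak B, a 2.38-fold step within 1 gene whose intervals did not overlap.

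The IP density of the DNAJC1 peaks was alike, 57.5 reads per kilobase in peak A and 60 in peak B, the highest of the members. The control density was 170 and 422.5 reads per kilobase. Peak A is 800 bases wide and peak B 400, so by raw reads peak A had both more IP reads and fewer control reads. With both peaks summed, DNAJC1 had 70 IP and 305 control reads. The summed DNAJC1 ratio was 0.230 (0.174 to 0.298), an interval that held the median of all peaks.

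The genes of translocation and ribosome binding lay at the opposite ends of the members' order. SSR2 (ENSG00000163479) encodes the beta subunit of the translocon-associated protein complex, which sits beside the Sec61 channel. Its peak, on the minus strand of chromosome 1 from 156009041 to 156009700, had 14 IP and 397 control reads. The ratio of SSR2 was 0.0353 (0.0191 to 0.0599), 0.186 times the median and rank 212. Its control density of 602 reads per kilobase was the highest of the members and rank 19 of the list, and its IP density of 21.2 was above the list's median of 16.1.

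LRRC59 (ENSG00000108829) encodes an ER membrane protein with leucine-rich repeats that binds ribosomes. Its peak, on the minus strand of chromosome 17 from 50385036 to 50385465, had 13 IP reads and 0 control reads, which allows up to 3. Set against that floor of 3 control reads in the peak, the LRRC59 ratio was 4.33, a value that depends on the floor. The two-sided counting interval had a lower bound of 3.05 and no upper bound. Control reads were 0 in 12 of the 236 peaks (5.08%), of which 10 lay in an interval of chromosome 21 that holds ribosomal RNA genes. LRRC59 was the only protein-coding gene among the 12. No listed peak had fewer than 11 IP reads, so any peak with 0 control reads had to stand high, and 56 peaks had 13 IP reads or fewer. At 30.2 IP reads per kilobase, LRRC59 was near P4HB by IP density.

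In the order of ratios, LRRC59 was followed by P4HB, DNAJC1 peak A, DNAJC1 peak B, PDIA3 and SSR2. Neighbours whose intervals overlapped were P4HB with DNAJC1 peak A, and DNAJC1 peak B with PDIA3. The steps from LRRC59 to P4HB, from peak A to peak B and from PDIA3 to SSR2 (3.63-fold) exceeded the counting intervals.

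**Figure D2:**
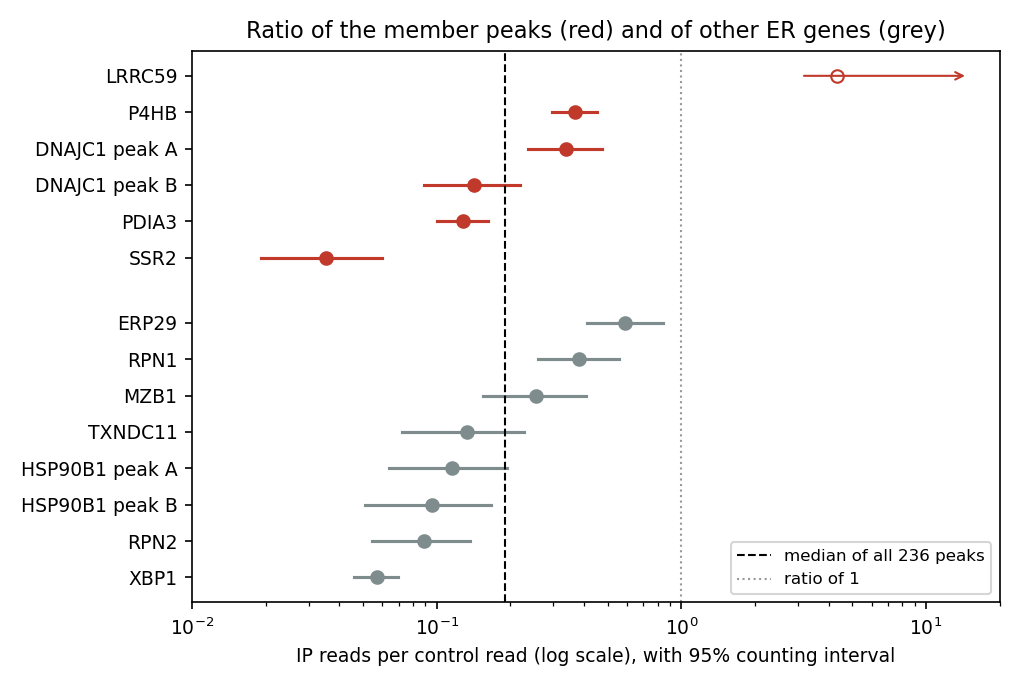
IP reads per control read, on a logarithmic axis with exact 95% counting intervals, for the 6 member peaks (red) and for 8 peaks of other genes on the ER list (grey); the dashed line is the median of all peaks, 0.190, and the dotted line is 1. LRRC59 is drawn open, at its value against the floor, with no upper bound, and SSR2 is the lowest member at 0.0353.

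As a group, the members had a median ratio of 0.240, beside 0.190 for all 236 peaks. The median rested on single genes. Without LRRC59 or without P4HB it was 0.142, below that of the list. Summed over the members there were 300 IP and 1656 control reads. Their quotient was 0.181 (0.160 to 0.205), beside 0.137 for the other 230 peaks. P4HB supplied 41.3% of the members' IP reads and 20.4% of their control reads, and without it the summed ratio was 0.133. SSR2 supplied 4.67% of the IP reads and 24.0% of the control reads.

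The summed ratio of the background depends on the ribosomal RNA interval of chromosome 21. Of all reads in peaks, the members held 2.49% (2.22 to 2.78) in the IP and 1.90% (1.81 to 1.99) in the control. With that interval left out of the total, a choice made with earlier results known, the shares were 3.32% (2.96 to 3.71) and 1.93% (1.84 to 2.02). The summed ratio of the 215 other peaks was then 0.104 (0.102 to 0.106). The bracketed ranges cover counting error only and leave out the spread of ratios between member peaks. No over-representation of the members in the IP is therefore read from the shares. Without P4HB the members' summed ratio of 0.133 had a range of 0.113 to 0.156. This range held the 0.137 of the 230 other peaks of the whole list and lay above 0.104. Without SSR2 the members' summed ratio was 0.227.

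Across the 224 peaks with control reads, the ratio fell as control reads rose, with a Spearman correlation of -0.79 over peaks of the same pair of libraries. The ratio contains the control count and the list starts at 11 IP reads, so the measures are not independent. Each member was therefore set beside the 3 named peaks nearest to it in control reads. The values below are of those peaks, and EEF1G, RPL6, RSL1D1 and AFAP1L2 had other listed peaks with other ratios.

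P4HB was the highest of its set. The glycolysis gene ALDOA had 92 IP and 335 control reads (0.275), the ribosomal protein gene RPL6 had 46 and 345 (0.133), and PFN1, the gene of the actin-binding protein profilin, had 14 and 334 (0.0419). The interval of ALDOA reached that of P4HB, and those of RPL6 and PFN1 did not.

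PDIA3 lay inside the range of its set. EEF1G, an elongation factor gene, had 97 IP and 607 control reads (0.160). Its other listed peaks, outside the set, had 60 and 551 (0.109) and 20 and 594 (0.0337), below PDIA3 by value. YBX1, which encodes an mRNA-binding protein, had 27 and 626 (0.0431), and ARPC2, an actin-nucleating complex gene, had 29 and 605 (0.0479). PDIA3 was thus below the median of the whole list and above 2 of the 3 peaks of like control count, with intervals that did not overlap theirs.

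Both DNAJC1 peaks exceeded their sets by value. Beside peak A stood PCBP1 (20 and 134 reads, 0.149), HIST2H4A (16 and 135, 0.119) and IKZF3 (11 and 134, 0.0821), an RNA-binding protein, a core histone and a lymphoid transcription factor. The interval of IKZF3 and that of HIST2H4A ended below the interval of peak A, and that of PCBP1 reached into it, from 0.0883 to 0.240. Beside peak B stood the mitochondrial channel gene VDAC1 (20 and 169 reads, 0.118), NCOA4 (12 and 173, 0.0694) and RSL1D1 (11 and 169, 0.0651), all with intervals that overlapped that of peak B.

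SSR2 was close to its set. TPM3, a tropomyosin gene, had 14 IP and 406 control reads (0.0345), and the ribosomal protein gene RPS25 had 19 and 413 (0.0460). TMSB10, which encodes an actin-binding thymosin, was higher at 51 and 383 reads (0.133). The nearest to LRRC59 were AFAP1L2 and ZNF598, each with 16 IP and 2 control reads (ratio 8), and MYBBP1A with 11 and 2 (5.5). With so few control reads their intervals were wide, 1.88 to 71.7 for AFAP1L2 and ZNF598. LRRC59 has only a lower bound, so no order can be given among these peaks.

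**Figure D3:**
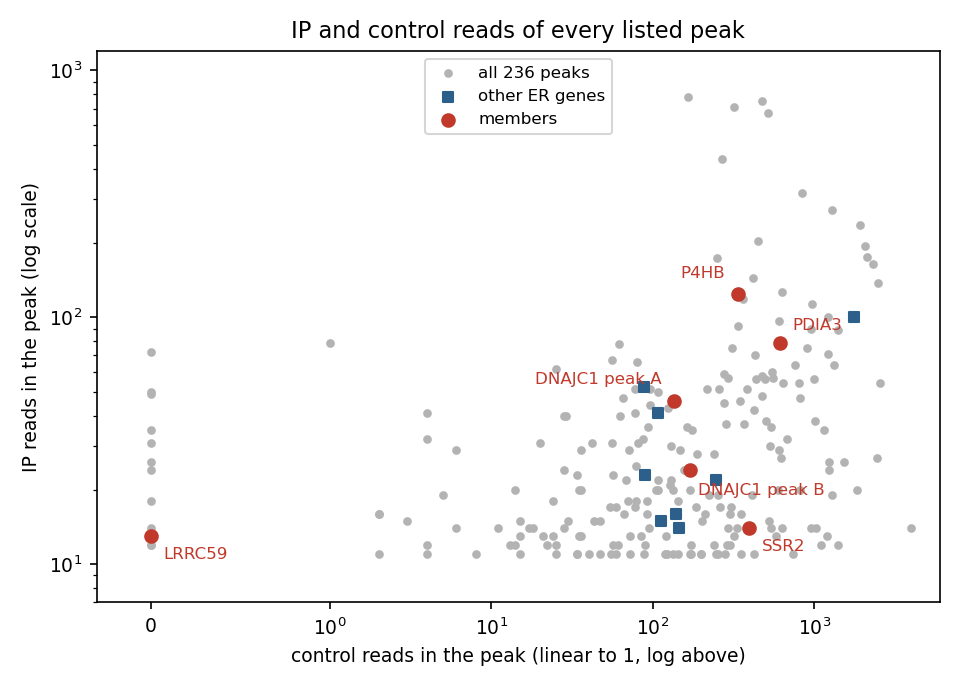
IP reads (logarithmic axis) against control reads (linear to 1, logarithmic above) for all 236 peaks in grey, with the member peaks in red and other genes of the ER list as blue squares. P4HB and PDIA3 have the most IP reads of the members, 124 and 79, SSR2 and LRRC59 lie near the lower edge of 11 IP reads, and LRRC59 stands at 0 control reads.

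The peaks lay towards the 3′ end of their genes, like most protein-coding peaks of the list, with LRRC59 nearest the middle. By the gene spans of the list, the peak centre stood at 87.6% of the way from the 5′ to the 3′ end in P4HB, 85.0% in PDIA3, 97.3% in SSR2, and 98.8% and 80.0% in DNAJC1 (peaks A and B). The value for LRRC59 was 54.7%. The median was 86.3% over the 6 member peaks and 80.0% over all 209 protein-coding peaks, whose middle range ran from 61.4% to 94.7%. Over the 8 peaks of other ER genes it was 76.5%. All 6 centres were inside the gene, against 90% of the 209 protein-coding peaks.

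Near the annotated 3′ end, the P4HB peak stopped 32 bases short of it and the PDIA3 peak 204 bases short. The SSR2 peak reached it, with 653 of its 660 bases in the gene. An edge within 500 bases of the 3′ end was found for these 3 of 6 peaks, against 28.2% of protein-coding peaks, with the distance chosen after the values were seen. DNAJC1 peak A ended 2464 bases before the 3′ end and peak B 49264 bases before it.

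The LRRC59 position depends on the annotation. The list's span of LRRC59 is 22495 bases and ends 9977 bases past the peak, whereas the RefSeq span on GRCh38.p14 is 16286 bases and ends 3798 bases past it, which moves the centre to 75.4%. For the other members the span of RefSeq moved the centre by little. Exon positions were not used here, so whether a peak was exonic or intronic is not stated, and the sequences under the peaks were not used here. The LRRC59, P4HB and SSR2 peaks did not reach the window around the RefSeq transcription start. DNAJC1 and PDIA3 were not compared with such a window. By RefSeq spans, the PDIA3 peak began 18988 bases from the 5′ end of the gene. For DNAJC1 this distance was 243930 bases for peak A and 197530 for peak B.

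**Figure D4:**
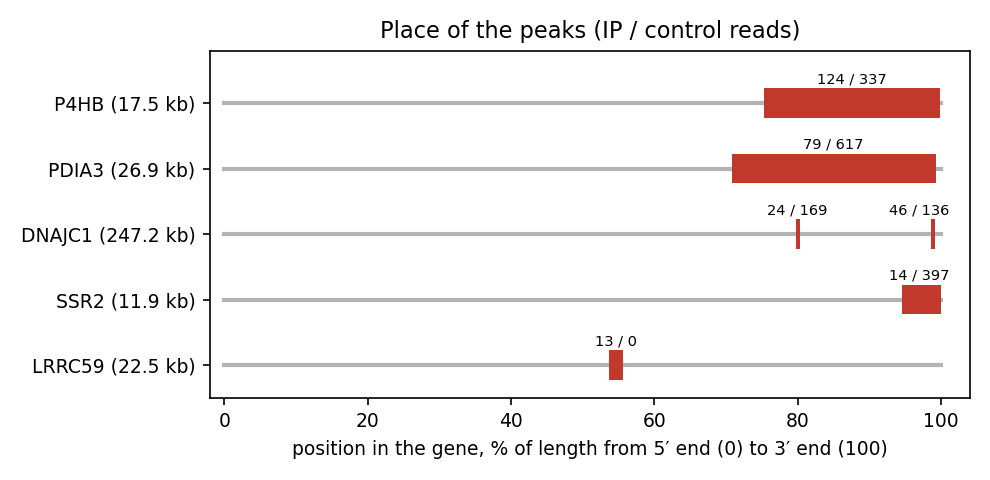
Place of each member peak along its gene, from the 5′ end (0%) to the 3′ end (100%) of the span in the list, with IP and control reads above each peak; peaks under 0.6% of the gene are drawn at that width. P4HB, PDIA3, SSR2 and DNAJC1 peak A reach into the last part of their genes, and the LRRC59 peak is centred at 54.7%.

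The authors' deposited scores gave another order than the ratio. In the authors' deposited table, the log-odds score was 422.4 for DNAJC1 peak B, 187.0 for peak A, 137.9 for SSR2, 79.8 for P4HB, 73.1 for PDIA3 and 33.6 for LRRC59, beside a median of 79.1 over the list. LRRC59, highest by ratio, was lowest by score, at rank 181 of 236, and SSR2, lowest by ratio, stood at rank 66. The authors' deposited p-values were 0 for SSR2 and both DNAJC1 peaks, as for 26.3% of all peaks. They were 5.29e-40 for P4HB, 2.81e-75 for PDIA3 and 4.78e-09 for LRRC59 in the authors' deposited table. The largest of the members was thus that of LRRC59, with 13 IP and 0 control reads, whereas SSR2 had 14 and 397. A low p-value in this list is therefore not read as more IP reads per control read.

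Over the 224 peaks with control reads, the score went up with control reads per kilobase (Spearman 0.78) and with IP reads per kilobase (0.44). It went down with the ratio (-0.46), as a description over peaks of the same libraries. A high score in this list is therefore not a high number of IP reads per control read. The DNAJC1 peaks and SSR2 had the highest control densities of the members as well as the highest scores.

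Other genes of the ER pathway had peaks as well. Of 91 genes on a list of ER folding, translocation and quality control, 12 had a peak, the 5 members among them by choice. Outside the members this was 7 of 86 genes (8.14%), beside 206 protein-coding genes in the peak list for 20056 in the RefSeq table (1.03%). The ER list was written with earlier results known, and unlisted genes have no known expression here, so nothing is read from these shares. By role, with the members counted, a peak was listed for 4 of 20 disulfide isomerases and oxidases, of which 2 were members. For J-domain co-chaperones (1 of 5) and translocation genes (2 of 22), every gene with a peak was a member. No member was among the 2 of 14 chaperones and prolyl isomerases with a peak. The same held for 2 of 12 genes of signal peptidase and oligosaccharyl transferase and 1 of 15 genes of the unfolded protein response and degradation. Of 3 retrieval receptors, 0 had a peak. Among the 4 SSR subunits, SSR2 alone had a listed peak.

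The 7 other genes had 8 peaks with ratios from 0.0568 to 0.591 and a median of 0.124, beside 0.240 for the members and 0.190 for all peaks. ERP29, a lumenal protein related to the disulfide isomerases, was highest with 52 IP and 88 control reads (0.591, 0.411 to 0.842). Its interval overlapped that of P4HB. TXNDC11, a thioredoxin-domain protein, had 15 and 113 reads (0.133, 0.0719 to 0.228), close to PDIA3.

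RPN1 and RPN2 encode the ribophorins, subunits of the oligosaccharyl transferase that sits at the translocon with the SSR2 complex. RPN1 had 41 IP and 107 control reads (0.383, 0.261 to 0.554). RPN2 had 22 and 248 (0.0887, 0.0546 to 0.137), in the widest of these peaks, 44640 bases. RPN1 and RPN2 were both above SSR2, and the interval of RPN2 overlapped that of SSR2.

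Among chaperones, HSP90B1, the lumenal HSP90, had 2 peaks, with 16 IP and 139 control reads (0.115) and 14 and 146 (0.0959). Its peaks, unlike those of DNAJC1, had overlapping intervals. MZB1, a plasma cell chaperone cofactor, had 23 and 90 reads (0.256, 0.154 to 0.408). XBP1, the transcription factor of the unfolded protein response, had 100 and 1760 reads, and its ratio of 0.0568 (0.0460 to 0.0695) was the lowest of these genes. The XBP1 value was above that of SSR2, with overlapping intervals.

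The members were chosen as ER genes, so a shared ER annotation was fixed by the choice. All 5 carried the Gene Ontology component "endoplasmic reticulum part", which was given for 19 of 199 listed genes with a symbol, these 5 included. The KEGG pathway of protein processing in the ER was given for P4HB, PDIA3, SSR2 and DNAJC1, and for 12 listed genes in all; LRRC59 was without it. RNA binding was annotated for P4HB, PDIA3 and LRRC59, and for 82 of the 199 genes (41.2%). The 10 KEGG pathway peaks that were not members had a median ratio of 0.249, with 5 of 10 above the median of all peaks. Of the member peaks, 3 of 6 were above it, against 50% of all peaks by definition.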

How the data were processed

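Per the submitters' processing notes, FastQC 0.11.5, HOMER and the build GRCh38 were used; aligner and peak caller are not given in the sources used here. In the deposited list each peak has a plain count and a count marked CTL, without library totals. The headers do not name the libraries, and the 2 counts were taken here for the IP and the input. The log-odds score and the p-value of each peak are the authors' deposited values and served only to describe and rank peaks. The remaining 2 value columns, reads per kilobase, were left out.

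The 279 rows were reduced to 236 distinct peaks, each named by its protein-coding gene where it had one, then by a gene with a symbol and the larger overlap. Ratios, exact Clopper-Pearson 95% intervals and ranks were computed in Python 3.11.15 with scipy 1.17.1. The interval of a median came from binomial ranks, and where the control had 0 reads, a floor of 3 reads in that peak was used. The interval code was tested on simulated data. No test was made, since each group had 1 library.

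The members and lists were chosen with earlier results of these data known. Named were the members, every other gene of the ER list with a peak, and for each member peak the 3 peaks with a symbol nearest in log2(control reads + 1). Floors, added reads, subsets of peaks and left-out genes were tried as alternatives. Positions follow the list's gene spans, and RefSeq spans on GRCh38.p14 were used for comparison.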

Additional observations from a re-analysis of the deposited data

How the results depend on the processing

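Of 33 alternative values of the group results, 29 stayed within the counting interval of the reported value or within 1.5 times the reported count. Many of these had little room to move, so the count does not measure stability. The subsets by position inside the gene kept all 6 peaks, and among the members the floors changed LRRC59 alone. With each gene left out in turn, the summed ratio of 0.181 ran from 0.133 (without P4HB) to 0.227 (without SSR2). It left its counting interval (0.160 to 0.205) in these runs and without PDIA3 (0.213). The median of 0.240 ran from 0.142 to 0.338. Its rank interval spans all 6 peaks, so it could hardly move outside it. By IP reads per kilobase, 5 of 6 member peaks lay above the list's median, against 3 by the ratio and 4 by the authors' score. The LRRC59 value was 13 with a floor of 1 control read, 2.6 with a floor of 5 and 14 with 1 read added to both libraries, all above every other member. The cause was not tested for any of these beyond the construction of the alternative. Counts of 13 and 14 IP reads limit LRRC59 and SSR2. An edge within 200 bases of the 3′ end, a distance added after the data were seen, held for 2 of 6 peaks. The share of all protein-coding peaks within 200 bases was not computed, so nothing is read from this count. No paired analysis was possible because each group had 1 library.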

Other observations

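Other listed genes with the Gene Ontology component "endoplasmic reticulum part", chosen after their values were seen, also spread over the ratio. The 16 peaks of 14 such genes outside the members had a median ratio of 0.143. LMAN2, a lectin that carries glycoproteins out of the ER, had 2 peaks like DNAJC1, with 14 IP and 17 control reads (0.824, 0.376 to 1.78) and 31 and 56 (0.554, 0.345 to 0.873), and their intervals overlapped. BCAP31, an ER membrane protein of quality control and export, had 23 and 57 reads (0.404, 0.237 to 0.665). HM13, the signal peptide peptidase, had 11 and 34 reads (0.324, 0.148 to 0.654).

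Lower values were seen for MLEC, a lectin of the ER membrane, with 11 IP and 253 control reads (0.0435, 0.0214 to 0.0791), an interval that overlapped that of SSR2. B2M, the light chain of MHC class I molecules, had 20 and 1850 reads (0.0108, 0.00659 to 0.0167), below SSR2 by its interval. HSPA8, a cytosolic chaperone of the same KEGG pathway, had 138 and 2487 reads (0.0555, 0.0464 to 0.0659).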
